A study of Homo sapiens with 6 samples.

Results

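Long intergenic noncoding RNAs with a LINC symbol were followed in BT20 cells, an established human line of triple negative breast cancer, after knockdown of cytokeratin 5. The genes were chosen by their symbol, LINC followed by digits, and by their measured mean level, which had to reach 0.2 CPM (a count as a share of its library's total, multiplied by 1000000) over the 6 libraries. Of 56505 rows in the count table, 1549 carry such a symbol, 624 of these have a count of 0 in every library, and 352 met the level. Cells carrying the hairpin against cytokeratin 5, named shCK5-22, gave 3 libraries, and cells carrying the control hairpin, shControl, gave 3 libraries. Both hairpins were carried in a pLK0 vector, and all cells were grown in DMEM/F12 medium with 10% fetal bovine serum and had no further treatment. Each group is 1 hairpin in 1 cell line, and the labels do not say whether the 3 libraries came from separate cultures, so p-values measure only how far these libraries vary, which may be technical variation.

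Long intergenic noncoding RNAs are transcribed from their own loci between protein-coding genes, are usually spliced, and are mostly present at low levels and in few cell types. Some act in the nucleus on genes close to their own locus, others bind proteins or RNAs in the cytoplasm, and a few that were first named as noncoding have since been shown to encode small proteins. A LINC symbol gives a place in a naming list and not a function. KRT5 is the gene of cytokeratin 5, which builds the filaments of basal epithelial cells and marks basal-like breast cancer.

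The promoters below belong to 3 LINC RNAs that rose and 2 that fell in shCK5-22 cells by the largest amounts or with the most counts. They are annotated promoters, and the starts that these cells use were not measured. For LINC01768 and LINC02009 the start given by GENCODE lies outside the window. Each is a RefSeq window on GRCh38.p14, from 250 bases before to 50 bases after the annotated start, written 5′ to 3′ on the transcribed strand, and the RefSeq start can differ from that of GENCODE, which gives the gene coordinates further on. Positions are chr22:27224630-27224929 (minus strand) for LINC01638, chr3:46423618-46423917 (minus strand) for LINC02009, chr1:109827804-109828103 (plus strand) for LINC01768, chr1:159960974-159961273 (plus strand) for LINC01133 and chrX:118839306-118839605 (plus strand) for LINC01285. Capitals mark every match, on either strand, to 6 short motifs, which are the TATA box with the letters TATAAA, the AP-1 site TGANTCA, the TEAD site GGAATG, an E-box of ZEB factors CAGGTG, the NF-kB site GGGANTTTC and the core of the interferon response element GAAANNGAA. No matches overlapped each other in these windows. The motifs were chosen after the levels were seen.
LINC01638: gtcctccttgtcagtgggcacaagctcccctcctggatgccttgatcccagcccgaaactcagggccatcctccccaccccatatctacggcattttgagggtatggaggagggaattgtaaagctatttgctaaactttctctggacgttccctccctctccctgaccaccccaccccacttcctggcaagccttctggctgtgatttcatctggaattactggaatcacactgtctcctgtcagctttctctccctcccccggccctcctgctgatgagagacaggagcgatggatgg
LINC02009: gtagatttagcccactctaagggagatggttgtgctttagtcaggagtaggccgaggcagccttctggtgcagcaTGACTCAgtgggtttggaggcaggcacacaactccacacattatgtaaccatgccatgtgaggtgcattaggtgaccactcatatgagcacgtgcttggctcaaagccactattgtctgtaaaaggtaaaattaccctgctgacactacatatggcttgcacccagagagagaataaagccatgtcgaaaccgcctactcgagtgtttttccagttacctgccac
LINC01768: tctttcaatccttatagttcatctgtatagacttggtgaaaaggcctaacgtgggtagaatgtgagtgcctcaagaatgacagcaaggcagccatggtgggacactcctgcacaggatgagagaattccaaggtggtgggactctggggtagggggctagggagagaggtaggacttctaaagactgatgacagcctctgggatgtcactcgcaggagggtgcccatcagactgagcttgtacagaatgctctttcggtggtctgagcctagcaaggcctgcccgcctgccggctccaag
LINC01133: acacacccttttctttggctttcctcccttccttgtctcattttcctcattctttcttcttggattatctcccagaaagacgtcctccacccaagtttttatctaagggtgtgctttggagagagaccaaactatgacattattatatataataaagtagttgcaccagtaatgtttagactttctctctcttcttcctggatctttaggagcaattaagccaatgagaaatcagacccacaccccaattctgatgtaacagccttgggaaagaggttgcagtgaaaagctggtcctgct
LINC01285: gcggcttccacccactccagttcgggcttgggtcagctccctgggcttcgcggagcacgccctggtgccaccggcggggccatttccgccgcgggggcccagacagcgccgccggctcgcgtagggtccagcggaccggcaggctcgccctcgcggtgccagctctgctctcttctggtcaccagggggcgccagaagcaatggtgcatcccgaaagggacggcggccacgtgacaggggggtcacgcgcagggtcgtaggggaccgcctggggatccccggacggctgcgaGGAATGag

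In these 5 windows there were 2 matches. The AP-1 letters TGACTCA stood in the LINC02009 promoter at bases -175 to -169, and the TEAD letters GGAATG stood 43 to 48 bases into the LINC01285 window downstream of the start. The LINC01285 promoter was rich in G and C (72.3%), and the LINC01133 promoter was the poorest of the 5 (41.3%). Among the 235 LINC RNAs with a promoter in the RefSeq table, the AP-1 letters were found in 14.9%, against 7.71% of all 35116 promoters, and the ZEB E-box letters in 26%, against 20.6%. The other motifs stood in 12.8% against 11.5% (TATA box), 15.3% against 14.0% (TEAD), 0.426% against 1.28% (NF-kB) and 7.66% against 8.11% (interferon element). AP-1 letters were in 3 of the 18 promoters of LINC RNAs that rose and in 7 of the 29 of those that fell. A match is a description of letters and no evidence that a factor binds there.

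KRT5 fell to 21.1, 22.7 and 24.1 CPM in the shCK5-22 libraries, against 231, 247 and 244 CPM in the shControl libraries (log2 fold change -3.41, SE 0.0448, adjusted p = 1.23e-20, edgeR's quasi-likelihood test with Benjamini-Hochberg adjustment over all genes tested). Library totals were between 47703937 and 65541734 counts. The epithelial markers EPCAM, KRT8, KRT18, CDH1 and EGFR summed to between 7447 and 7798 CPM in shCK5-22 libraries and between 7607 and 7815 CPM in shControl libraries, with 0 higher and 2 lower, CDH1 (log2 fold change -0.37, adjusted p = 1.48e-09) and EGFR (log2 fold change -0.18, adjusted p = 5.31e-05, edgeR). The 3 leukocyte markers PTPRC, CD3E and CD14 summed to at most 1.00 CPM in shCK5-22 libraries and 1.21 CPM in shControl libraries, and CD3E had under 3 counts in every library. The 3 endothelial markers summed to between 18.9 and 30.7 CPM in shCK5-22 libraries and between 23.1 and 31.0 CPM in shControl libraries, with 0 higher and 1 (PECAM1) lower. PECAM1 missed the threshold without shCK5-22 replicate 2 or 3 or shControl replicate 3 (adjusted p up to 0.128) and with halved counts (adjusted p = 0.0530, edgeR). Of the 5 fibroblast markers, which summed to between 28.2 and 29.2 CPM in shCK5-22 libraries and between 31.7 and 32.8 CPM in shControl libraries, 2 rose (PDGFRB and LUM), 1 fell (COL1A1) and DCN had at most 2 counts in any library. Their part in the results was not tested, and in bulk RNA fewer cells of a type and less RNA per cell cannot be told apart. Of the receptors that define triple negative tumours, PGR stayed at or below 0.0832 CPM, while ESR1 averaged 11.5 CPM in shCK5-22 cells and 14.5 CPM in shControl cells, and ERBB2 83.8 CPM in shCK5-22 cells and 120 CPM in shControl cells. Replicate 1 of shCK5-22 stood apart from the other 2 (chi-square per degree of freedom of 33.7 and 19.8, against 5.08 between replicates 2 and 3 and at most 4.88 between shControl libraries). Low counts were mostly even numbers, 88.8% of counts from 1 to 9 and 79.6% of those from 10 to 99, so a count may not stand for 1 independent fragment.

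LINC RNAs were present at low levels. Their median mean level was 0.967 CPM, against 10.3 CPM for all 18008 genes tested, and the 352 RNAs ranged from 0.204 to 86.7 CPM. Of them, 179 lay under 1 CPM and 32 reached 10 CPM. The summed level of all 352 was 1208, 1218 and 1208 CPM in the shCK5-22 libraries and 1298, 1274 and 1306 CPM in the shControl libraries. The lowest shControl sum lay above the highest shCK5-22 sum. The sums include LINC01001, LINC01002, LINC01106 and LINC01123, which all fell and whose reads, as described below, cannot be tied to 1 locus. These sums have no test, since the RNAs were selected on their level in these libraries. The 8 most abundant RNAs held 27.4% of the total.

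Of the 351 LINC RNAs that passed the filter on low counts, 29 were higher and 43 were lower in shCK5-22 cells at an adjusted p under 0.05, and 279 did not pass. The 72 make up 20.5% of those tested. Of all 18008 genes tested, 34.2% passed the same threshold, 17.4% higher and 16.8% lower, and of the 13337 protein-coding genes tested 41% did. At an unadjusted p under 0.05 there were 104 of the 351 LINC RNAs, against 7606 of all 18008 genes tested. Without shCK5-22 replicate 1, the library that stood apart, 28 were higher and 42 lower. Without shControl replicate 3 there were 21 higher and 26 lower, the lowest count of falls when 1 library was left out.

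The share that changed followed the level. Between 0.2 and 0.5 CPM, 7.48% of 107 LINC RNAs passed, against 7.78% of all genes at that level. From 0.5 to 1 CPM it was 18.1% of 72 RNAs against 14.7%, from 1 to 2 CPM 23.5% of 51 against 19.8%, and from 2 to 5 CPM 23.3% of 60 against 31.3%. At 5 CPM or more, 41.0% of 61 RNAs passed, against 47.0% of all genes. The LINC RNAs lay above all genes in 2 of the 5 ranges and below them in 3.

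**Figure D1:**
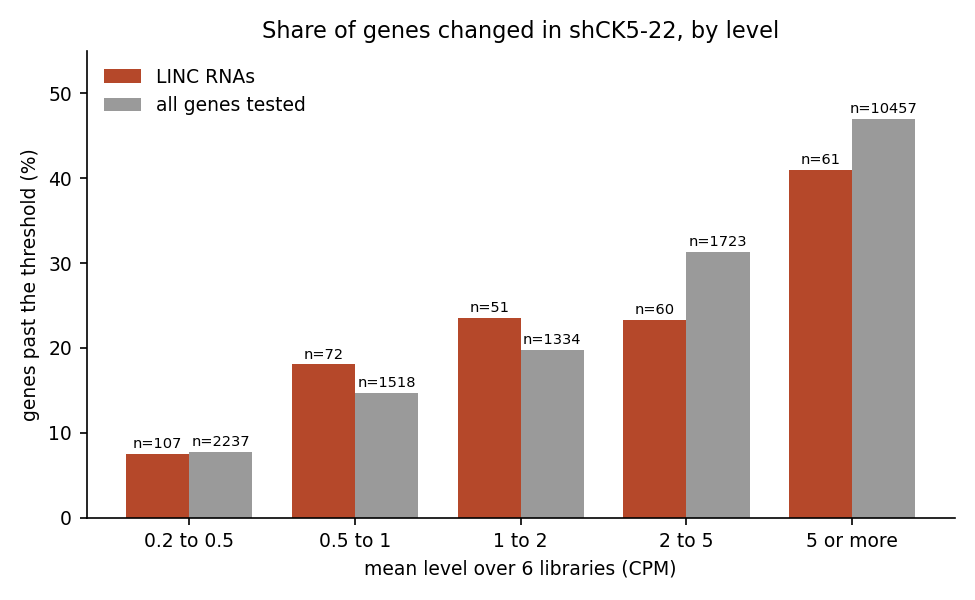
The vertical axis gives the share of genes (in %) past an adjusted p of 0.05, for LINC RNAs (left bar of each pair) and all genes tested (right bar), by mean level over the 6 libraries in CPM, with the number of genes above each bar. The share rises with level in both sets, to 41.0% of LINC RNAs and 47.0% of all genes at 5 CPM or more.

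Where LINC RNAs changed, the changes spanned wide fold values. The median size of the log2 fold change among the 72 was 0.77, against 0.29 among all genes that passed. Changes of 2-fold or more were found for 11 higher and 12 lower LINC RNAs of 351, while 3.56% of all genes tested both passed and changed that much. Low genes need a larger change to pass, which enters these medians. The median log2 fold change of all 351 was -0.07, against -0.01 for all genes tested. The 3 shCK5-22 values did not overlap the 3 shControl values for 124 LINC RNAs (35.3%; 54 higher and 70 lower), against 45.1% of all genes tested. Of the 72 that passed, 6 did overlap.

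**Figure D2:**
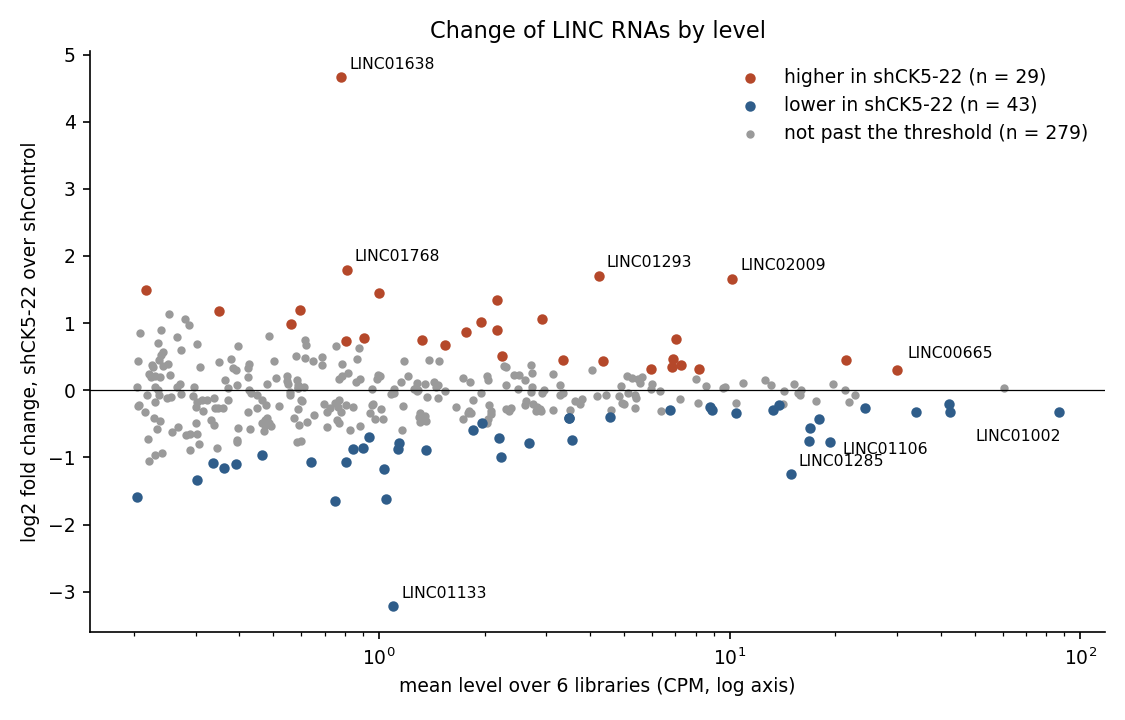
Each point is 1 of the 351 tested LINC RNAs, with its mean level over 6 libraries in CPM on a log axis and its log2 fold change of shCK5-22 over shControl on the vertical axis, coloured by whether it was higher (29), lower (43) or not past the threshold (279). LINC01638 at 4.66 and LINC01133 at -3.21 lie outside the range of the other points, and the 8 most abundant RNAs lie between -0.33 and 0.29.

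The largest rise was that of LINC01638 (chromosome 22, 27221349 to 27224727, minus strand, GRCh38), an RNA of 3 exons that has been reported to keep c-Myc protein stable in triple negative breast cancer cells. Its level was 1.73, 1.27 and 1.49 CPM in shCK5-22 cells and 0.125, 0.0307 and 0.0317 CPM in shControl cells. These values rest on 113, 76 and 79 counts in shCK5-22 libraries and on 6, 2 and 2 counts in shControl libraries. Every shCK5-22 library lay far above every shControl library. Its shControl values all lay under the 0.2 CPM of the selection, which it met through its shCK5-22 values. The log2 fold change was 4.66 (SE 0.400, adjusted p = 8.41e-09, edgeR). The ratio of pooled counts was 26.3, with an exact 95% binomial interval of 11.0 to 82.4 that was computed on counts halved because of the even numbers and covers counting error only. The nearest protein-coding gene on either side lay over 500 kb away.

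LINC02009 was the highest in level among the large rises (chromosome 3, 46416524 to 46423591, minus strand). It reached 17.8, 13.1 and 15.4 CPM in shCK5-22 cells, against 5.54, 4.54 and 4.66 CPM in shControl cells, a 3.16-fold higher level (log2 fold change 1.66, SE 0.111, adjusted p = 2.1e-09, edgeR). It lies between 2 genes that also rose. CCRL2, an atypical chemokine receptor that binds chemerin, is 3527 bases away and had 6.16, 7.66 and 7.04 CPM in shCK5-22 cells against 2.83, 3.19 and 3.71 CPM in shControl cells (log2 fold change 1.09, adjusted p = 5.4e-07, edgeR). LTF, which encodes the iron-binding protein lactoferrin, is 12054 bases away on the other side and was near its detection floor. It had 0.245, 0.201 and 0.265 CPM in shCK5-22 cells and 0, 0.0307 and 0.0951 CPM in shControl cells, a pooled ratio of 5.16 with an exact 95% interval of 1.74 to 20.7 on halved counts (adjusted p = 0.0117, edgeR). LTF missed the threshold without shControl replicate 1 (adjusted p = 0.0553) and without replicate 2 (adjusted p = 0.0618).

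LINC01768 (chromosome 1, 109828355 to 109871436, plus strand) had 1.13, 1.14 and 1.51 CPM in shCK5-22 cells and 0.250, 0.276 and 0.539 CPM in shControl cells. All 3 shCK5-22 values lay above the highest shControl value. The log2 fold change was 1.80 (SE 0.300, adjusted p = 6.9e-05, edgeR). The gene on its downstream side, 38806 bases away, is CSF1, the macrophage colony-stimulating factor. CSF1 had 13.2, 11.9 and 11.4 CPM in shCK5-22 cells against 3.91, 4.23 and 4.22 CPM in shControl cells (log2 fold change 1.56, adjusted p = 3e-11, edgeR).

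LINC01293 (chromosome 2, 74940258 to 74942670, plus strand) had 6.13, 7.03 and 6.28 CPM in shCK5-22 cells and 1.91, 2.22 and 1.79 CPM in shControl cells (log2 fold change 1.71, SE 0.129, adjusted p = 1.09e-09, edgeR). LINC01291, a separate row that ends 1840 bases upstream on the same strand, is the symbol under which RefSeq now lists both. It had 9.03, 9.28 and 8.36 CPM in shCK5-22 cells and 4.93, 5.34 and 5.36 CPM in shControl cells (log2 fold change 0.77, adjusted p = 1.36e-06, edgeR). These 2 rows were the single pair, of 24 pairs of LINC RNAs within 200 kb of each other, in which both passed. The coding neighbours changed by small amounts. HK2, a hexokinase, had a log2 fold change of -0.16 (adjusted p = 0.0448) and POLE4, a DNA polymerase subunit, 0.21 (adjusted p = 0.0117, edgeR). HK2 missed the threshold when any one of 4 libraries was left out (shCK5-22 replicate 1 or 3, shControl replicate 2 or 3; adjusted p up to 0.134) and with RLE normalization (adjusted p = 0.0517), and POLE4 without shCK5-22 replicate 3 (adjusted p = 0.0588) or shControl replicate 3 (adjusted p = 0.110).

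The other large rises were lower in level than LINC02009 and LINC01293. LINC02154 on chromosome X had 1.49, 1.44 and 1.48 CPM in shCK5-22 cells and 0.541, 0.491 and 0.571 CPM in shControl cells (log2 fold change 1.46, adjusted p = 3.26e-05, edgeR). LINC00944 on chromosome 12 had 3.24, 2.58 and 3.52 CPM in shCK5-22 cells and 1.5, 1.21 and 0.999 CPM in shControl cells (log2 fold change 1.34). LINC01435 on chromosome 10 had 4.62, 3.11 and 4.09 CPM in shCK5-22 cells and 2.04, 1.5 and 2.16 CPM in shControl cells (log2 fold change 1.06). In each of the 3 the groups were apart. LINC02101 on chromosome 5 averaged 0.835 ± 0.129 CPM in shCK5-22 cells and 0.357 ± 0.0612 CPM in shControl cells (SD, n = 3 each). Of the nearest coding genes on either side of these 4, PLK2 beside LINC02101 was the single one that lay within 500 kb and was tested, and it did not pass (adjusted p = 0.980, edgeR).

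**Figure D3:**
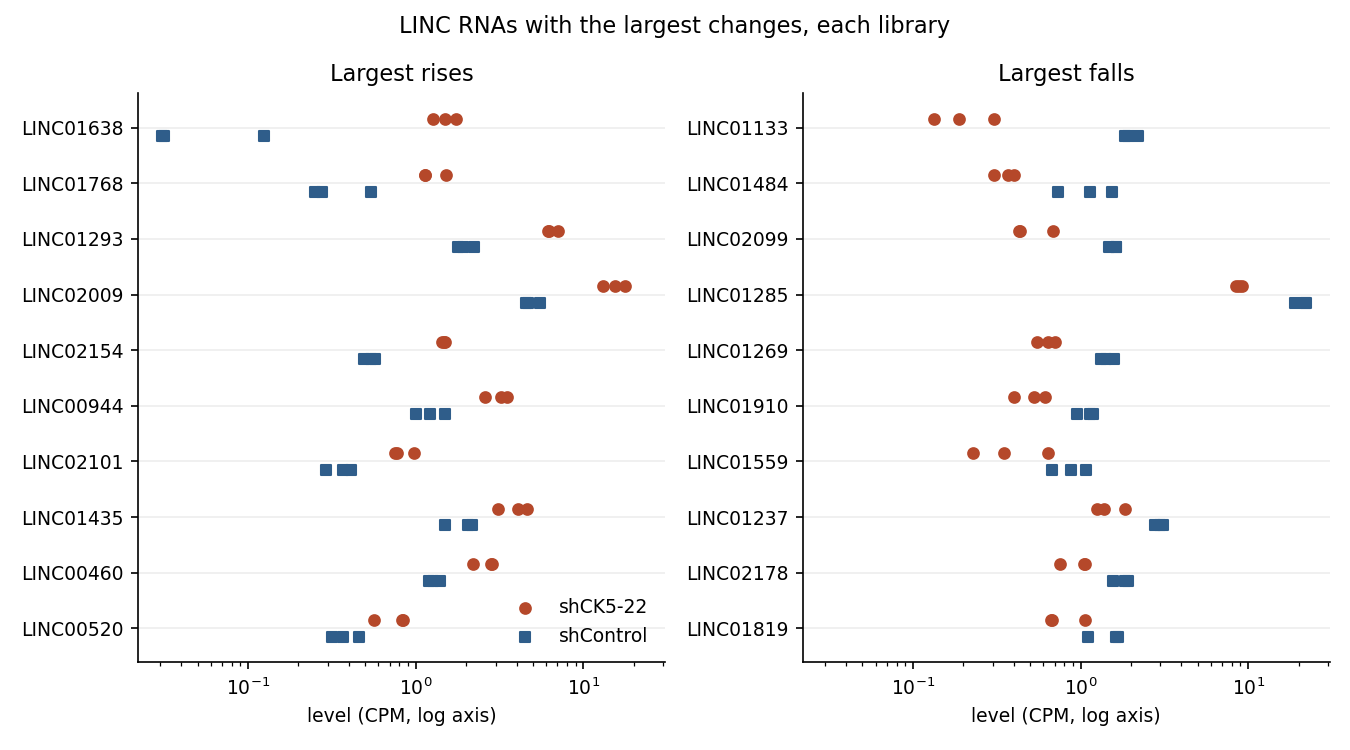
Each point is the level of 1 library in CPM on a log axis, with shCK5-22 as circles in the upper row and shControl as squares in the lower row of each RNA, for the 10 largest rises (left) and the 10 largest falls (right) among RNAs whose groups do not overlap and whose mean reaches 0.5 CPM. LINC01638 shows the widest gap on the left and LINC01133 on the right, and LINC02009 and LINC01285 are the most abundant of each side.

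The largest fall was that of LINC01133 (chromosome 1, 159961218 to 159984750, plus strand), an RNA reported to bind the splicing factor SRSF6 and to hold back epithelial-mesenchymal transition in some carcinomas. Its level was 0.307, 0.134 and 0.189 CPM in shCK5-22 cells, against 1.91, 2.21 and 1.84 CPM in shControl cells. The counts were 20, 8 and 10 in shCK5-22 libraries and 92, 144 and 116 in shControl libraries. The groups were far apart, with a log2 fold change of -3.21 (SE 0.278, adjusted p = 9.49e-09, edgeR). The pooled level was 9.43-fold lower, with an exact 95% interval of 5.86 to 16 on halved counts. KCNJ10, a potassium channel gene 13901 bases away, was also lower (0.751, 0.669 and 0.587 CPM in shCK5-22 cells and 1.5, 0.889 and 1.22 CPM in shControl cells, log2 fold change -0.83, adjusted p = 0.0144, edgeR), and missed the threshold without shCK5-22 replicate 3, shControl replicate 1 or shControl replicate 3 (adjusted p up to 0.0887). SLAMF9, an immune receptor gene on the other side, had a log2 fold change of -0.87 that did not pass (adjusted p = 0.211, edgeR).

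LINC01285 (chromosome X, 118839554 to 118919669, plus strand) was the most abundant of the large falls. It had 8.49, 9.20 and 8.88 CPM in shCK5-22 cells, against 19.1, 21.8 and 22.1 CPM in shControl cells. The groups were far apart, and the log2 fold change was -1.25 (SE 0.0741, adjusted p = 2.59e-11, edgeR). Its nearest tested coding gene, LONRF3, which encodes a RING finger protein, went the other way (log2 fold change 0.28, adjusted p = 0.000103, edgeR). LINC01269 on chromosome 14 had 0.552, 0.703 and 0.643 CPM in shCK5-22 cells, against 1.58, 1.32 and 1.41 CPM in shControl cells (log2 fold change -1.18, adjusted p = 0.000315, edgeR). Both of its coding neighbours fell with it. TTC9 had 17.5, 16.6 and 18.2 CPM in shCK5-22 cells against 28.4, 26.9 and 26.4 CPM in shControl cells (log2 fold change -0.64). MAP3K9, a kinase of the JNK pathway, had 63.2, 60.0 and 64.8 CPM in shCK5-22 cells against 87.2, 88.7 and 92.8 CPM in shControl cells (log2 fold change -0.52).

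Among the other large falls, LINC01484 on chromosome 5 had 0.399, 0.368 and 0.303 CPM in shCK5-22 cells and 1.54, 0.736 and 1.14 CPM in shControl cells (log2 fold change -1.65, adjusted p = 0.000265, edgeR). LINC02099 on chromosome 8 had 0.429, 0.435 and 0.681 CPM in shCK5-22 cells and 1.62, 1.49 and 1.62 CPM in shControl cells (log2 fold change -1.62, adjusted p = 1.83e-05, edgeR). Neither pair of groups overlapped. LINC01910, LINC01559, LINC01237, LINC02178 and LINC01819 fell with log2 fold changes between -1.07 and -0.88. Of these, LINC01559 was the most spread, with 0.644, 0.351 and 0.227 CPM in shCK5-22 cells and 1.08, 0.675 and 0.872 CPM in shControl cells (adjusted p = 0.0203, edgeR). It missed the threshold when any one of 4 libraries was left out (shCK5-22 replicate 2 or 3, shControl replicate 1 or 3), with adjusted p-values up to 0.0986. LINC01819 missed it without shControl replicate 3 (adjusted p = 0.0576).

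The most abundant LINC RNAs changed by small amounts. LINC01002 had 81.6, 71.7 and 77.6 CPM in shCK5-22 cells and 97.2, 91.1 and 101 CPM in shControl cells (log2 fold change -0.32, SE 0.0468, adjusted p = 3.02e-05, edgeR). LINC01588 averaged 37.7 ± 2.65 CPM in shCK5-22 cells and 47.3 ± 2.12 CPM in shControl cells (SD, n = 3 each). LINC01001 averaged 30.1 ± 1.96 CPM in shCK5-22 cells and 37.8 ± 0.959 CPM in shControl cells, and LINC00969 22.1 ± 1.14 CPM in shCK5-22 cells and 26.6 ± 1.26 CPM in shControl cells (SD, n = 3 each). These 3 fell with log2 fold changes of -0.33, -0.33 and -0.26. LINC00854 had 56.8, 65.2 and 61.2 CPM in shCK5-22 cells and 58.0, 56.0 and 65.3 CPM in shControl cells, groups that overlapped (adjusted p = 0.753, edgeR). It is now annotated as the protein-coding gene CCDC200. Per kilobase of exon it was the most abundant of the 339 with an annotated length, at 18.6 CPM per kb in shCK5-22 cells and 18.2 CPM per kb in shControl cells. LINC01278 averaged 22.2 ± 0.936 CPM in shCK5-22 cells and 23.4 ± 0.690 CPM in shControl cells and did not pass (log2 fold change -0.07, adjusted p = 0.381, edgeR).

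Some of these values cannot be tied to 1 locus. LINC01001 and LINC01002 lie near the ends of chromosomes 11 and 19, and 86.5% and 69.9% of their 50-base exon stretches occur in another annotated gene. LINC01106 and LINC01123, chosen after their values were seen, lie on chromosome 2 with 89.2% and 68.8% of such stretches found elsewhere. They fell together, LINC01106 to 14.3 ± 0.722 CPM in shCK5-22 cells against 24.4 ± 0.777 CPM in shControl cells, and LINC01123 to 12.5 ± 0.350 CPM in shCK5-22 cells against 21.2 ± 0.463 CPM in shControl cells (SD, n = 3 each; log2 fold changes -0.77 and -0.76). How the authors counted reads that map to several places is not stated in the labels or file, so the origin of these reads is uncertain. In all, 13 LINC RNAs had at least 50% of their stretches in another gene, of which 0 rose and 6 fell. Beside this count and those that follow, 17.4% of all genes tested were higher and 16.8% lower. A further overlap concerns exons. Of 339 LINC RNAs with 1 locus in GENCODE, 245 share no exon base with another gene on either strand, and 24 of these rose and 26 fell. Of the 94 that share exon bases, 4 rose and 15 fell, and since the use of strand in counting is not given, reads of the partner gene may be included.

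A set of 22 LINC RNAs with a published role in carcinoma cells, or with a small protein or a partner gene, was described beside the rest. Of the 22, 6 rose, 4 fell and 12 did not pass (45.5%, against 34.2% of all genes tested), with a median log2 fold change of 0.05 against -0.01. The list was drawn up with earlier results of these data known, and the count is a description. A further 14 RNAs of the list had a level under 0.2 CPM or no row under their LINC symbol. Those without such a row may be counted under another name.

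Among those that rose, LINC00460, linked to epithelial-mesenchymal transition in several carcinomas, had 2.21, 2.81 and 2.86 CPM in shCK5-22 cells and 1.21, 1.27 and 1.40 CPM in shControl cells (log2 fold change 1.01, SE 0.173, adjusted p = 8.98e-05, edgeR). LINC00520, which has been described as induced by oncogenic Src and STAT3 signalling in breast cells, had 0.828, 0.836 and 0.568 CPM in shCK5-22 cells and 0.458, 0.368 and 0.317 CPM in shControl cells (log2 fold change 0.98, adjusted p = 0.0214, edgeR). Groups were apart in both, but LINC00520 missed the threshold in DESeq2 (adjusted p = 0.0506) and when any one of 4 libraries was left out (shCK5-22 replicate 1 or 2, shControl replicate 2 or 3; adjusted p up to 0.0800). LINC00941, described as holding back keratinocyte differentiation, averaged 6.59 ± 0.452 CPM in shCK5-22 cells and 5.31 ± 0.333 CPM in shControl cells (log2 fold change 0.31, adjusted p = 0.0224, edgeR). It missed the threshold without shCK5-22 replicate 3 (adjusted p = 0.0972) and without shControl replicate 2 (adjusted p = 0.104). LINC00665, which encodes a micropeptide that binds the phosphatase inhibitor CIP2A, averaged 33.1 ± 3.23 CPM in shCK5-22 cells and 26.9 ± 1.42 CPM in shControl cells (log2 fold change 0.29). LINC00094, now annotated as the coding gene BRD3OS beside BRD3, averaged 24.7 ± 0.605 CPM in shCK5-22 cells and 18.1 ± 0.822 CPM in shControl cells (SD, n = 3 each; log2 fold change 0.45, adjusted p = 3.44e-06, edgeR), and 21.4% of its exon bases are shared with BRD3, which did not pass (log2 fold change -0.07).

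Of those that fell besides LINC01133, LINC00704, also called MANCR and described as expressed around mitosis in triple negative breast cancer, had 16.1, 11.5 and 13.4 CPM in shCK5-22 cells and 21.5, 18.4 and 20.8 CPM in shControl cells (log2 fold change -0.56, SE 0.108, adjusted p = 0.00188, edgeR). LINC00963, linked to EGFR signalling in prostate cancer cells, averaged 15.4 ± 1.14 CPM in shCK5-22 cells and 20.6 ± 0.839 CPM in shControl cells (log2 fold change -0.43). LINC00511, described in breast cancer as a partner of the histone methyltransferase EZH2, averaged 39.2 ± 1.42 CPM in shCK5-22 cells and 45.2 ± 2.49 CPM in shControl cells (SD, n = 3 each; log2 fold change -0.21, adjusted p = 0.00248, edgeR). In all 3 the groups did not overlap.

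The 12 that did not pass had log2 fold changes between -0.58 and 0.22. They include LINC01139, also called LINK-A and described as a kinase-binding RNA in triple negative breast cancer (1.05 ± 0.212 CPM in shCK5-22 cells and 1.10 ± 0.194 CPM in shControl cells; SD, n = 3 each). LINC00662, linked to several carcinomas, averaged 14.2 ± 0.353 CPM in shCK5-22 cells and 14.3 ± 0.406 CPM in shControl cells. LINC00116, whose transcript encodes the mitochondrial micropeptide mitoregulin, averaged 13.2 ± 1.49 CPM in shCK5-22 cells and 15.2 ± 0.953 CPM in shControl cells (log2 fold change -0.20, adjusted p = 0.0594, edgeR), and passed the threshold under 4 of the alternative settings, with adjusted p-values down to 0.0254. LINC01578, known as CHASERR, represses its neighbour CHD2, a chromatin remodeller 488 bases away. It had 1.92, 2.63 and 3.61 CPM in shCK5-22 cells and 2.29, 2.35 and 2.30 CPM in shControl cells and did not pass (log2 fold change 0.22, adjusted p = 0.405), while CHD2 rose (log2 fold change 0.21, adjusted p = 9.43e-05, edgeR).

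**Figure D4:**
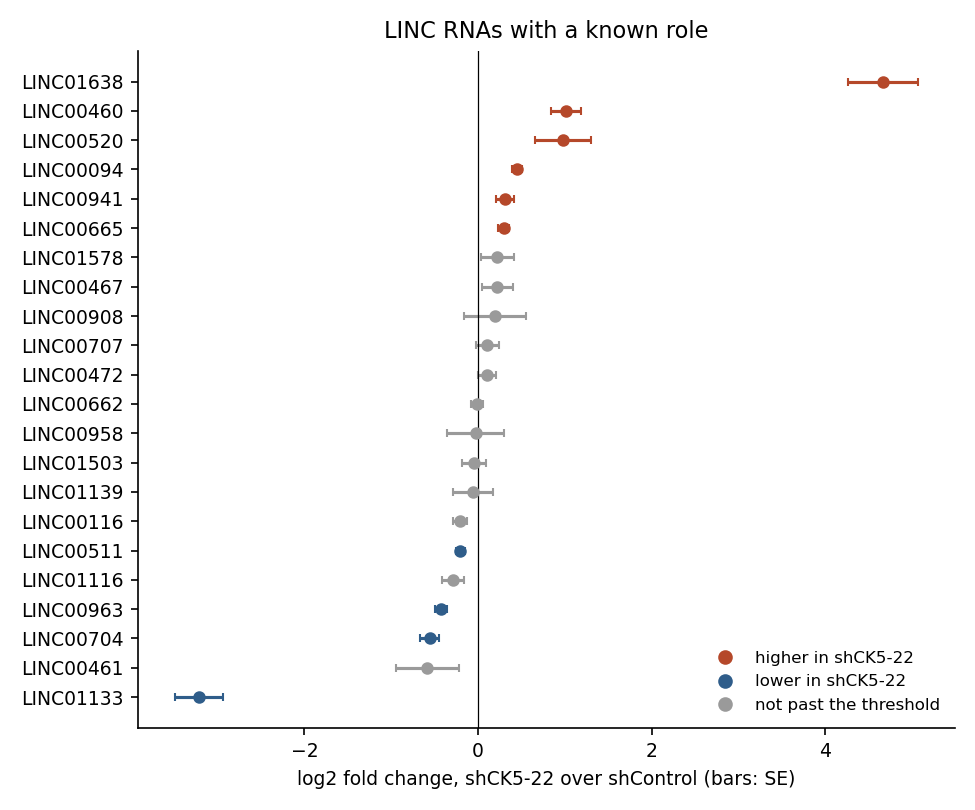
Points give the log2 fold change of shCK5-22 over shControl for the 22 LINC RNAs with a published role, with bars of 1 SE, ordered by value and coloured by whether the RNA was higher (6), lower (4) or not past the threshold (12). LINC01638 and LINC01133 stand at the 2 ends, at 4.66 and -3.21, and the other 20 lie between -0.58 and 1.01.

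Symbols that are no longer noncoding were few. RefSeq now lists 9 of the 352 as protein-coding, of which LINC00094 rose, LINC00634 fell and the other 7 did not pass. LINC00634 had 0.276, 0.167 and 0.0568 CPM in shCK5-22 cells and 0.603, 0.429 and 0.285 CPM in shControl cells (log2 fold change -1.33, adjusted p = 0.0412, edgeR). It missed the threshold without shCK5-22 replicate 2 or 3 or shControl replicate 1 or 2 (adjusted p up to 0.186) and in DESeq2 (adjusted p = 0.0755).

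Since some LINC RNAs act on nearby genes, the nearest protein-coding gene on each side was compared, and genes overlapping the RNA were left out. The named LINC RNAs had 54 tested coding neighbours within 500 kb, of which 29 passed (53.7%, against 41% of all protein-coding genes tested). The 72 LINC RNAs that changed had 49 tested neighbours within 50 kb, of which 26 passed (53.1%), and 85 within 500 kb, of which 38 passed (44.7%). Around the LINC RNAs that did not pass, 135 of 324 neighbours within 500 kb did (41.7%). This share compares with the 44.7% at the same distance, and none was computed within 50 kb. Within 50 kb there were 28 pairs in which both the RNA and the neighbour passed, and in 23 of them both moved in the same direction. Within 500 kb it was 28 of 40 pairs. How often other adjacent genes move in the same direction was not computed. HK2 and POLE4 each enter these pairs with both LINC01291 and LINC01293, which RefSeq now lists under the same symbol. A neighbour can share reads or a promoter with the RNA beside it.

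In all, 282 LINC RNAs were paired with their nearest tested coding gene within 500 kb, leaving out coding genes that overlap the RNA. Over these pairs the 2 log2 fold changes had a Pearson's r of 0.13 and a Spearman's rho of 0.10. Over the 61 pairs in which the LINC RNA had passed, r was 0.36 and rho 0.22. All pairs come from the same 6 libraries, and these values describe the pairs without a test. The LINC01768 and CSF1 pair and the LINC02009 and CCRL2 pair lay at the high end. At the low end were LINC01133 with SLAMF9 (log2 fold changes -3.21 and -0.87) and LINC01123 with MALL. SLAMF9 averaged 0.122 CPM in shCK5-22 cells and 0.228 CPM in shControl cells and did not pass (adjusted p = 0.211, edgeR). MALL fell to 52.8 CPM in shCK5-22 cells against 113 CPM in shControl cells. LINC01602 and FAM110B, a further pair chosen after its values were seen, were 10383 bases apart and both higher (log2 fold changes 0.35 and 1.03), and LINC01602 missed the threshold without shControl replicate 3 (adjusted p = 0.0791). Of 22 LINC RNAs that start head to head with a coding gene, 2 rose and 2 fell, while 34.2% of all genes tested passed. In 3 of these 4 the coding gene passed in the same direction, which was C1orf174 with LINC01134, PATZ1 with LINC01521 and SLC12A2 with LINC01184. These 3 LINC RNAs, named after their values were seen, had adjusted p-values of 0.0448, 0.0476 and 0.0281 in edgeR. LINC01134 missed the threshold without any of the 3 shCK5-22 replicates or shControl replicate 2 or 3, LINC01521 without shCK5-22 replicate 1 or 2 or shControl replicate 1 or 3, and LINC01184 without shCK5-22 replicate 3 or shControl replicate 1 or 3, with adjusted p-values up to 0.249. In DESeq2 all 3 missed it (adjusted p = 0.0828, 0.1 and 0.0512), and so did LINC01134 with library size only (adjusted p = 0.0594) and LINC01521 with upper-quartile normalization (adjusted p = 0.0507, edgeR).

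**Figure D5:**
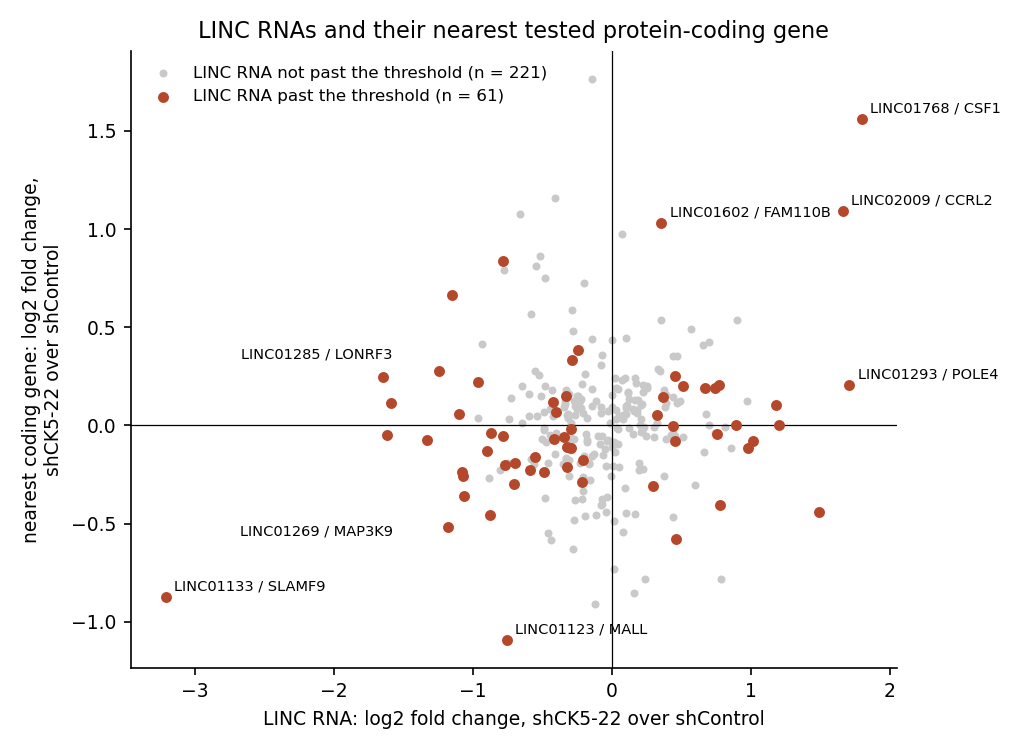
Each point is 1 LINC RNA and its nearest tested protein-coding gene within 500 kb that does not overlap it. The horizontal axis gives the log2 fold change (shCK5-22 over shControl) of the LINC RNA and the vertical axis that of the coding gene. The 61 LINC RNAs past the threshold are coloured and the other 221 grey, and LINC01768 with CSF1 (1.80 and 1.56) stands at the upper right while LINC01285 with LONRF3 (-1.25 and 0.28) moved in opposite directions.

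Long noncoding RNAs with names of another kind were taken from a list drawn up with earlier results known. Of its 80 rows, 58 were tested, 12 rose and 8 fell (34.5%, against 34.2% of all genes tested). FENDRR, an RNA of the lateral mesoderm beside FOXF1, had the largest rise, with 1.32, 1.30 and 1.06 CPM in shCK5-22 cells and 0.250, 0.184 and 0.444 CPM in shControl cells (log2 fold change 2.06, adjusted p = 2.11e-05, edgeR). LUCAT1, a stress-induced RNA, LINC-PINT, induced by p53, and DANCR, named for holding back differentiation, rose with log2 fold changes of 0.70, 0.47 and 0.44. The largest fall was that of MIR205HG, the host transcript of the epithelial microRNA miR-205, with 5.66, 5.00 and 5.54 CPM in shCK5-22 cells and 14.9, 11.2 and 13.1 CPM in shControl cells (log2 fold change -1.27, adjusted p = 3.56e-09, edgeR). H19, an imprinted RNA, TINCR, known from epidermal differentiation, and MIR210HG, the host of a microRNA induced by hypoxia, fell with log2 fold changes of -1.18, -0.83 and -0.79. GENCODE release 29 lists TINCR as protein-coding. H19 missed the threshold without shCK5-22 replicate 1 or 3 or shControl replicate 1 (adjusted p up to 0.120).

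At the edge of the selection, the last 3 LINC RNAs inside the limit were LINC01115, LINC00456 and LINC02065, with means of 0.203, 0.204 and 0.204 CPM. The first 3 outside it were LINC01088, LINC01852 and LINC01985, with 0.199, 0.199 and 0.198 CPM. The 3 inside the limit had between 4 and 23 counts in a library. The shCK5-22 values of LINC00456 all lay under 0.2 CPM, so it met the limit through its shControl values. LINC00456 had 0.107, 0.1 and 0.0946 CPM in shCK5-22 cells and 0.250, 0.353 and 0.317 CPM in shControl cells (log2 fold change -1.59, adjusted p = 0.0166, edgeR), and missed the threshold when any one of 4 libraries was left out (shCK5-22 replicate 2 or 3, shControl replicate 2 or 3; adjusted p up to 0.0782).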

How the data were processed

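RNA was measured in 3 shCK5-22 and 3 shControl libraries of BT20 cells. The authors deposited a table of raw read counts. Tools named in the submitters' processing notes are cutadapt, STAR, SAMtools and Cufflinks with build GRCh38. Not given in the sources used here are the tool that counted reads, the annotation, whether strand was used, and how multi-mapping reads were treated.

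The table's 27 rows with a calendar date for a symbol were left out, leaving 56478 rows. Counts were fitted with edgeR 4.0.16 (R 4.3.3), as a quasi-likelihood test with robust estimation, TMM and filterByExpr. Two-sided p-values were adjusted over the 18008 tested genes (Benjamini-Hochberg), and 0.05 was the threshold. CPM values use TMM-scaled library sizes, except the 0.2 CPM of the selection, which uses column sums. Library totals ran from 47703937 to 65541734, so the floor of 3 counts is between 0.0458 and 0.0629 CPM. Intervals and floors cover counting error only. The script was checked on simulated counts. Loci come from GENCODE release 29 on GRCh38 (325 LINC symbols matched directly, 14 through an older symbol, 8 at several loci, 5 unmatched). Promoters come from RefSeq on GRCh38.p14.

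The LINC RNAs, the gene lists and the tests were chosen with earlier results of these data known. The RNAs named are the 10 largest rises and 10 largest falls past the threshold with no overlap and a mean of at least 0.5 CPM, the 8 most abundant, those with a published role, the 3 on either side of the limit, 4 rises and 4 falls of other long noncoding RNAs, the coding neighbours within 500 kb, and KRT5. Alternatives were other normalizations and filters, DESeq2 1.42.0, a threshold of 0.01, a replicate block, leaving out each library, and other member rules. Halving the counts was added after the even counts were seen. A marker gene of the lists is not reported here.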

Additional observations from a re-analysis of the deposited data

How the results depend on the processing

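Calls changed under some alternative for 6 of the 47 LINC RNAs named by the rule, which were LINC01559, LINC00941, LINC00456, LINC00520 and LINC01819 (lost) and LINC00116 (gained), and for 11 of 37 other genes named, 5 of them LINC RNAs named after their values were seen (LINC00634, LINC01602, LINC01134, LINC01521 and LINC01184). In these counts, a gene that a stricter filter left untested is not taken as changed. No named gene that passed changed direction. Of the 72 LINC RNAs that passed, 36 passed under every alternative fit, where an RNA that a stricter filter left untested counts as not passing. At a threshold of 0.01 there were 18 higher and 23 lower, and 19 coding neighbours in place of 29, by construction. Among the 245 RNAs with no shared exon base 24 were higher and 26 lower, against 29 and 43 of all 351 tested. The cause of this was not tested. DESeq2 called 23 higher and 30 lower, and halved counts, chosen after seeing the data, 29 and 42. Leaving out 1 library at a time gave 21 to 28 higher and 26 to 42 lower, the lowest without shControl replicate 3 (the cause was not tested), 154 to 157 RNAs without overlap in place of 125 of 352, and 21 to 31 coding neighbours. By construction, the count without overlap cannot fall when a library is left out. The summed level over the same omissions was 1208 to 1213 CPM in shCK5-22 cells and 1286 to 1302 CPM in shControl cells. With library size alone it was 1205 CPM in shCK5-22 cells. Whether the replicate numbers pair the samples is not given in the labels, and these few libraries cannot settle it. Same-numbered deviations correlated at 0.065, 0.13 and -0.023, and differently numbered ones at between -0.13 and 0.064. A fit with the replicate number as a block gave 32 higher, 46 lower and 32 coding neighbours. Of the 107 RNAs under 0.5 CPM, 8 passed (7.48%, against 7.78% of all genes at that level).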
